A study of Saccharomyces cerevisiae with 10 samples.

Results

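The 10 strains described here each lack 1 gene for an enzyme subunit of the mitochondrial tricarboxylic acid (TCA) cycle of the budding yeast Saccharomyces cerevisiae. They were CIT1, ACO1, IDH1, IDH2, KGD1, KGD2, LSC1, LSC2, FUM1 and MDH1, found by gene symbol in the probe annotation. All 10 were measured, among 5325 deletion strains in all. They were chosen by function, with their log2 ratios over all 10 benomyl doses already seen, so those ratios are given as a description, with no test.

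A pool of 5896 heterozygous diploid knockout strains was sporulated. Haploid MATa cells were picked out on magic medium, which lets no other cells of the pool grow, at 30 °C and with or without benomyl, a microtubule-depolymerising drug. There were 10 groups of 1 array each, at benomyl doses of 0, 1, 5, 10, 15, 20, 25, 30, 35 and 40 µg/ml. Selection took 2 days for doses up to 10 µg/ml, 3 days for 15 µg/ml and 4 days for the 5 doses above. Each array set the DNA barcodes (tags) of a pool without drug, labelled with Cy5, against those of a pool with drug, labelled with Cy3, after the same number of days, and the array at 0 µg/ml had a pool without drug in both dyes. No dose was repeated, so a value on 1 array has no replicate error and precision is limited by the number of arrays, and dose and days rise together.

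Values are log2 ratios of tag signals, minus the median of the array. From the dyes in the labels, the numerator is likely the drug-free pool and the denominator the benomyl pool, so that a positive value means that a strain was scarcer with drug than the median strain. The sources used here do not name the dye of the numerator, and if the ratio ran the other way all signs would turn. A value also does not show which of the pools changed. The spread over all strains differed between arrays and did not widen evenly with dose. Its standard deviation was 0.51 without drug, 0.89 and 0.86 at 5 and 10 µg/ml, and lower, at 0.72 and 0.73, at 15 and 20 µg/ml. It then grew from 1.01 at 25 µg/ml to 1.46 at 40 µg/ml. A given ratio is thus more common at 5 and 10 than at 15 and 20 µg/ml, and most common at the highest doses.

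In the TCA cycle, citrate synthase joins acetyl-CoA to oxaloacetate, and the cycle then releases carbon dioxide, hands electrons to the respiratory chain and returns to oxaloacetate. It also supplies 2-oxoglutarate, from which yeast makes glutamate, and oxaloacetate, from which it makes aspartate. When respiration is impaired, the retrograde pathway, with the transcription factors Rtg1 and Rtg3, keeps up the first enzymes of the cycle so that 2-oxoglutarate can still be made.

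The strain lacking ACO1 stood apart from the others. It lay above the array median on all 8 arrays from 5 µg/ml up, with a highest value of 4.26 on the log2 scale at 10 µg/ml, which is a 19.1-fold ratio. The other 9 strains stayed within 1.65 of the median on every array, in either direction. MDH1 was modestly above the median on all 8 arrays from 5 µg/ml, IDH2 was below it on all 10 arrays, and the remaining strains crossed it.

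**Figure D1:**
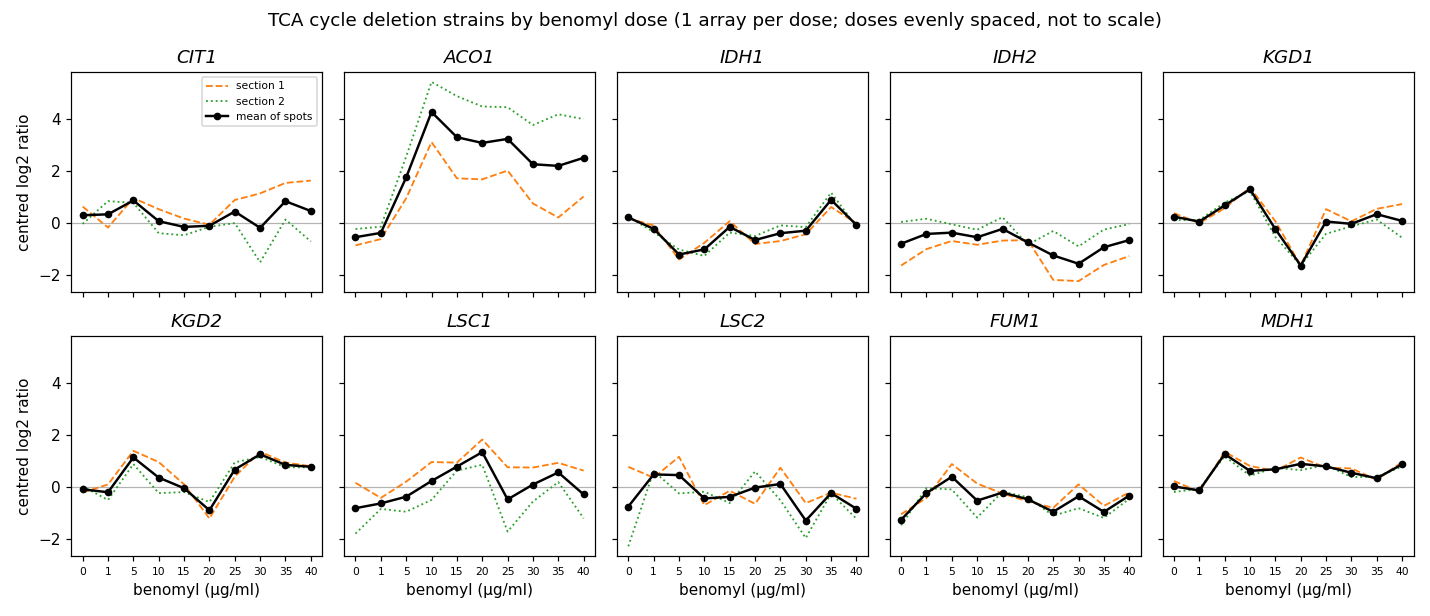
Centred log2 ratio (y axis) of the 10 TCA cycle deletion strains against benomyl dose in µg/ml (x axis, evenly spaced), 1 panel per strain and 1 array per dose. Black points are the mean of all spots, and dashed and dotted lines are the 2 sections of the array layout; ACO1 reaches 4.26 at 10 µg/ml, while no other strain goes beyond 1.65 from 0.

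Every strain has spots in 2 sections of the layout, taken here to hold its 2 tags. The sections share the DNA and the array, so they are not replicates, but they show how far a value depends on 1 tag. Over the 10 arrays the courses of the sections correlated at Pearson r = 0.87 for ACO1, 0.84 for MDH1, 0.81 for KGD1, 0.80 for IDH1 and 0.73 for KGD2. They correlated at 0.65 for LSC1, 0.51 for FUM1, 0.34 for IDH2, -0.07 for LSC2 and -0.33 for CIT1. The median r over all strains was 0.58. For IDH2, LSC2 and CIT1 a mean of the sections hides a disagreement in course. LSC1 had a median gap of 1.23 between sections and FUM1 one of 0.40, against 0.43 over all strains. Of all 5325 strains, 41.5% had an r of 0.7 or more, against 5 of the 10 members.

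The cycle begins with citrate synthase, encoded by CIT1. The strain lacking it was, in order of dose from 0 to 40 µg/ml, at 0.29, 0.32, 0.86, 0.06, -0.16, -0.12, 0.43, -0.20, 0.83 and 0.45. Values with drug lay around that without drug. The sections parted at high dose, with 1.13, 1.53 and 1.62 in the first and -1.52, 0.12 and -0.72 in the second at 30, 35 and 40 µg/ml. The fitted changes from 0 to 40 µg/ml were 1.22 ± 0.44 and -1.11 ± 0.53 (SE, n = 10 arrays) in the sections, and 0.05 ± 0.38 for their mean.

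Aconitase, encoded by ACO1, turns citrate into isocitrate with an iron-sulfur cluster, and yeast strains without it need glutamate in the medium. The ACO1 strain was, in the same order of dose, at -0.56, -0.39, 1.74, 4.26, 3.29, 3.07, 3.22, 2.25, 2.18 and 2.49. The course was thus a step between 1 and 10 µg/ml with lower values afterwards, not an even slope. Counted from the highest ratio, this strain was 4724th of all 5325 strains without drug, 76th at 5 µg/ml, 8th at 10 µg/ml, 36th at 25 µg/ml and 203rd at 40 µg/ml.

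Both tags of the ACO1 strain showed the step, at different heights. The first section had 0.94 and 3.10 for doses of 5 and 10 µg/ml, and only 0.20 and 1.01 for the top doses of 35 and 40 µg/ml. The second section had 2.54 and 5.41 for doses of 5 and 10 µg/ml and stayed between 3.75 and 4.87 from 15 to 40 µg/ml. Sections had the same sign on all 10 arrays. The peak is on the 10 µg/ml array, the only one on which few ratios, 2.32%, were whole hundredths (99.2% or more on the others), so its values were not rounded as the others were, and the part of that array in the peak was not tested. At 15 to 25 µg/ml, without that array, the strain was at 3.07 to 3.29. A straight line gave a change of 2.10 ± 1.16, and a line against log2(dose + 1) gave 3.49 ± 0.90. Without the 0 µg/ml array the straight line gave 1.13 and without the 1 µg/ml array 1.26, and 1.97 to 2.71 without any other array.

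**Figure D2:**
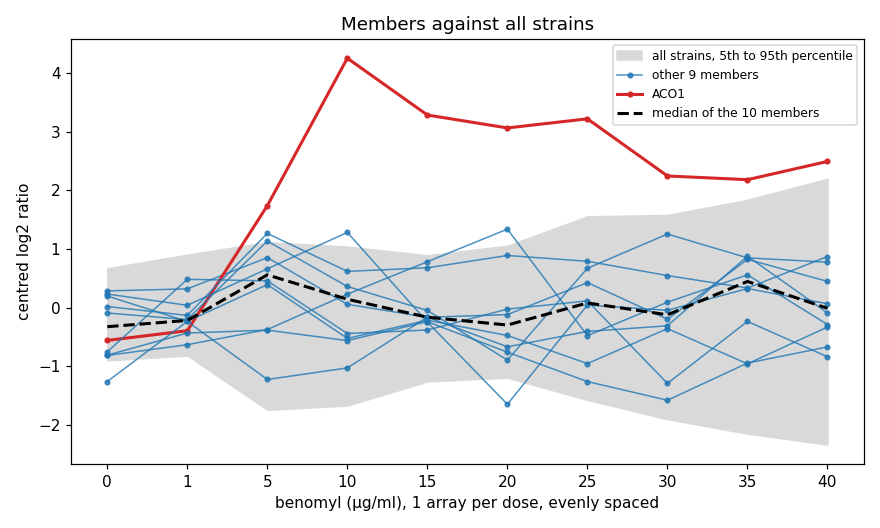
Centred log2 ratio (y axis) of the 10 members against benomyl dose in µg/ml (x axis, evenly spaced). The ACO1 strain is in red and the other 9 are in blue. The dashed line is the median of all 10 members, and grey marks the 5th to 95th percentile of all strains. ACO1 is above the grey band at every dose from 5 µg/ml up, and the median of the members stays between -0.32 and 0.56.

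NAD-dependent isocitrate dehydrogenase, the next enzyme, is built from the subunits Idh1 and Idh2, and makes 2-oxoglutarate. The IDH1 strain ran, by rising dose, through 0.20, -0.23, -1.22, -1.03, -0.16, -0.67, -0.40, -0.31, 0.88 and -0.09. It was low at 5 and 10 µg/ml, where ACO1 was at 1.74 and 4.26, and both of its sections were below -0.77 there. The IDH2 strain ran through -0.81, -0.43, -0.38, -0.56, -0.24, -0.76, -1.26, -1.58, -0.94 and -0.67. It was below the median without drug as well, and lower there than at 6 of the 9 drug doses. The low values came mainly from the first section, at -1.65 without drug and -2.24 at 30 µg/ml, against 0.03 and -0.91 in the second.

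The 2-oxoglutarate dehydrogenase complex turns 2-oxoglutarate into succinyl-CoA. Kgd1 is its dehydrogenase component (E1) and Kgd2 its succinyltransferase core (E2). The KGD1 strain had values, by rising dose, of 0.23, 0.04, 0.66, 1.28, -0.24, -1.65, 0.05, -0.04, 0.33 and 0.07. The KGD2 strain had -0.09, -0.20, 1.14, 0.36, -0.05, -0.89, 0.67, 1.26, 0.85 and 0.78. Both strains were above the median at 5 and 10 µg/ml and had their lowest value at 20 µg/ml.

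That low point was seen in both tags of each strain, at -1.65 in both sections for KGD1 and at -1.21 and -0.58 for KGD2. Counted from the lowest ratio, KGD1 was 124th and KGD2 445th of 5325 strains on the 20 µg/ml array. It rests on 1 array, the first with 4 days of selection. From 25 µg/ml on KGD2 stayed higher than KGD1, by at most 1.30 over all arrays.

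Succinyl-CoA ligase, with the alpha subunit Lsc1 and the beta subunit Lsc2, makes succinate and ATP. The LSC1 strain had values, by rising dose, of -0.81, -0.63, -0.37, 0.23, 0.78, 1.34, -0.48, 0.10, 0.56 and -0.29. It was highest at 20 µg/ml, where KGD1 and KGD2 were lowest. The LSC2 strain had -0.75, 0.48, 0.46, -0.44, -0.38, -0.02, 0.12, -1.29, -0.23 and -0.84. It shows no clear order with dose, and its sections were 3.05 apart without drug, at 0.78 and -2.28.

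LSC1 is the only member with more than 2 spots, 6 in each section. At 20 µg/ml the spots of the first section were at 1.83 ± 0.07 (SD over 6 spots of 1 array) and those of the second at 0.85 ± 0.65, and without drug they were at 0.16 ± 0.05 and -1.79 ± 0.41. Repeated spots of 1 tag therefore lay closer together than the tags did, and the second tag was the noisier of them on all 10 arrays.

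Fumarase, encoded by FUM1, hydrates fumarate to malate in the mitochondrion and the cytosol. From 0 to 40 µg/ml the FUM1 strain went through -1.26, -0.23, 0.39, -0.52, -0.21, -0.47, -0.95, -0.36, -0.96 and -0.33. Its lowest value was the one with no drug in either pool, so values down to -1.26 occur in this strain without benomyl. Mitochondrial malate dehydrogenase, encoded by MDH1, closes the cycle. The MDH1 strain went through 0.02, -0.13, 1.27, 0.62, 0.68, 0.89, 0.79, 0.55, 0.34 and 0.87. It had the closest tags of the 10, with a median gap of 0.17 between sections against 0.43 over all strains, and both tags were above 0.27 at every dose from 5 µg/ml up.

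Over the 5 arrays of 4 days, which differ in dose, the mean level was 2.64 ± 0.48 (SD over arrays) for ACO1, 0.69 ± 0.24 for MDH1, 0.53 ± 0.83 for KGD2, 0.28 ± 0.43 for CIT1 and 0.25 ± 0.73 for LSC1. Lower in this order were IDH1 at -0.12 ± 0.59, KGD1 at -0.25 ± 0.79, LSC2 at -0.45 ± 0.59, FUM1 at -0.61 ± 0.32 and IDH2 at -1.04 ± 0.38. Except for the step from ACO1 to MDH1 and that from FUM1 to IDH2, neighbours in this order lay closer together than the SD of either.

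Members with at least a 2-fold difference from the array median were counted too, a measure with no test. Without drug 0 lay above and 1 (FUM1) below, where 2.42% and 3.83% of all strains did, and on the 1 µg/ml array 0 and 0, where 3.91% and 3.55% did. For the dose of 5 µg/ml 3 members (ACO1, MDH1 and KGD2) lay above and 1 (IDH1) below, against 6.29% and 12.1% of all strains. For 10 µg/ml these were 2 (ACO1 and KGD1) and 1 (IDH1), against 5.37% and 12.7%. The 15 µg/ml array had 1 (ACO1) and 0, against 4.3% and 7.46%, and the 20 µg/ml array 2 (ACO1 and LSC1) and 1 (KGD1), against 5.71% and 7.1%. The next arrays had 1 (ACO1) and 1 (IDH2), against 10.6% and 9.88%, for 25 µg/ml, and 2 (ACO1 and KGD2) and 2 (IDH2 and LSC2), against 11.1% and 12.5%, for 30 µg/ml. ACO1 alone was above, and 0 were below, for 35 µg/ml (14.8% and 14.3% of all strains) and 40 µg/ml (19.3% and 18.1%). ACO1 was thus above on 8 arrays and no other member on more than 2.

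A straight line against dose was fitted to every strain with limma, with Benjamini-Hochberg adjustment over the whole table, and a strain is said here to have risen or fallen at an adjusted p below 0.05. Of the 10 members 0 rose and 0 fell, where 10.3% of all strains rose and 9.13% fell. An unadjusted p below 0.05 was reached by 0 members, beside 1000 rises and 775 falls among all 5325 strains. Nothing is read from these counts, since the same course was known when the members were chosen, and ACO1 shows that a line describes a step poorly. The fitted changes were 2.10 ± 1.16 for ACO1, 0.80 ± 0.55 for KGD2, 0.67 ± 0.50 for IDH1, 0.65 ± 0.58 for LSC1, 0.36 ± 0.39 for MDH1 and 0.05 ± 0.38 for CIT1. They were -0.19 ± 0.44 for FUM1, -0.43 ± 0.64 for KGD1, -0.60 ± 0.36 for IDH2 and -0.72 ± 0.47 for LSC2. Their median was 0.21, beside 0.09 for all strains. Single arrays weigh on these small changes. When 1 array was left out, that of MDH1 ran from 0.08 (without the 1 µg/ml array) to 0.65. The change of FUM1 then turned sign (0.10 without the 5 µg/ml array), as did that of CIT1 (-0.21 without the 35 µg/ml array). Other settings turned further signs. With days of selection as a covariate KGD1 was at 3.37 ± 0.95 and LSC1 at -0.82 ± 1.37. With arrays scaled to equal spread IDH2 was at 0.18 ± 0.41. Over the 2-day arrays, from 0 to 10 µg/ml, IDH1 was at -1.21 ± 0.51.

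Among strains that lack subunits of the same enzyme, KGD1 and KGD2 had courses with r = 0.59 over the 10 arrays. KGD2 was 41st among 5324 strains by likeness of its course to KGD1, and KGD1 466th by likeness to KGD2. IDH1 and IDH2 were at r = -0.25, with IDH1 higher on 8 of 10 arrays and a median difference of 0.39. LSC1 and LSC2 were at r = -0.07. The points share the array and its spread, and the tags of IDH2 and LSC2 disagreed among themselves. Of the 45 pairs of members the highest r was 0.65, between ACO1 and MDH1, and the lowest -0.63, between IDH1 and FUM1.

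**Figure D3:**
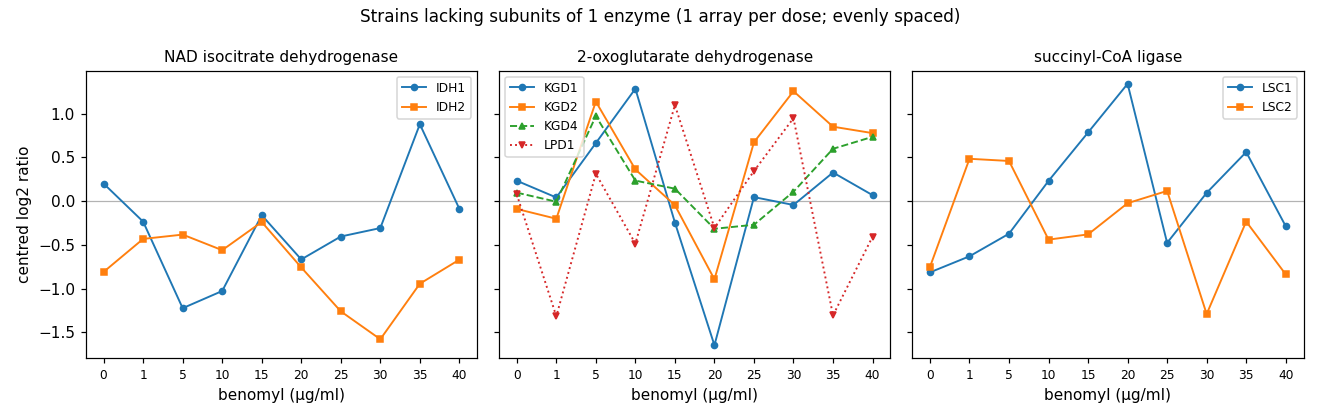
Centred log2 ratio (y axis) against benomyl dose in µg/ml (x axis, evenly spaced, 1 array per dose) for strains lacking subunits of NAD isocitrate dehydrogenase, the 2-oxoglutarate dehydrogenase complex and succinyl-CoA ligase. KGD1, KGD2 and KGD4 are lowest at 20 µg/ml, at -1.65, -0.89 and -0.32, with KGD4 at -0.27 at 25 µg/ml. LPD1, in the same panel, is lowest at 1 and 35 µg/ml, at -1.31 and -1.30, and the subunits in the other panels follow different courses.

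The rest of the cycle was covered by a list of 10 genes, 9 of them measured, of which 3 rose and 0 fell, beside 10.3% and 9.13% of all strains, with a median change of 0.77. Kgd4 recruits the third component of the 2-oxoglutarate dehydrogenase complex, the dihydrolipoamide dehydrogenase Lpd1, which also serves pyruvate dehydrogenase. The KGD4 strain had a change of 0.18 ± 0.40 and a course at r = 0.54 with KGD1 and 0.63 with KGD2, with its lowest value, -0.32, on the same 20 µg/ml array. It was close to that at 25 µg/ml, at -0.27, where its first section was lowest, at -0.37. LPD1 had -0.01 ± 0.72 and its tags disagreed, at r = -0.44. Its course was at r = -0.11 with KGD1 and 0.21 with KGD2.

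Succinate dehydrogenase links the cycle to the respiratory chain, with the catalytic subunits Sdh1 and Sdh2 and the membrane anchors Sdh3 and Sdh4. SDH3 rose by 2.16 ± 0.66 (limma adjusted p = 0.0421), with 0.11 without drug, then -0.21 and 2.14 at 1 and 5 µg/ml, and 1.41 to 3.26 above that. The other anchor and the catalytic subunits did not pass, with 0.77 ± 0.30 for SDH4, 0.89 ± 0.39 for SDH2 and 0.40 ± 0.33 for SDH1, and the SDH2 sections were at 2.09 and -0.31. Of the assembly factors, SDH8 rose by 1.94 ± 0.39 (adjusted p = 0.00578), with values of 1.02 to 1.78 from 25 µg/ml up and none above 0.10 below that, and SDH7 rose by 0.96 ± 0.28 (adjusted p = 0.0336). At 5 to 20 µg/ml the SDH8 sections had opposite signs, at 0.47 to 0.92 in the first and -1.31 to -0.83 in the second, so the low mean there is not that of either tag. SDH5 was at -0.27 ± 0.33. On single sections SDH3 changed by 3.12 ± 0.67 and 1.19 ± 0.76, the second not called, and SDH7 by 0.80 ± 0.29 and 1.13 ± 0.32, the first not called. The SDH3 call was lost without the array at 0, 1, 10, 20, 25 or 40 µg/ml, at 1.63 to 2.17, and the SDH7 call without that at 0, 1, 30, 35 or 40 µg/ml, at 0.85 to 1.02.

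Isoenzymes outside the 10 members catalyse some of the same reactions, several of them in another compartment or with another cofactor. Of 8 listed, 7 were measured, and 0 rose and 0 fell in limma, beside 10.3% and 9.13% of all strains. An unadjusted p below 0.05 was reached by 1, upwards, beside 1000 rises and 775 falls among all 5325 strains. The median change was 0.37. The largest change was of MDH2, cytosolic malate dehydrogenase, at 1.91 ± 0.64 (limma adjusted p = 0.0570). Its values at 1, 5, 10 and 40 µg/ml were -0.07, 1.86, 2.50 and 2.76, while MDH3, the peroxisomal enzyme, stayed between -0.90 and 0.18. Without the 5 or the 10 µg/ml array MDH2 passed, at 2.20 and 2.16. IDP1, the mitochondrial NADP-dependent isocitrate dehydrogenase, was singled out after its values were seen. It was at 1.34, 3.19, 2.61, 1.97 and 3.02 at 5 to 25 µg/ml and at 1.29, -0.24 and 0.54 at 30 to 40 µg/ml, with a fitted change of only 0.37 ± 1.22. These high values rest on the second section, which was at 2.77, 5.78, 4.66, 3.14 and 5.26 at 5 to 25 µg/ml, while the first lay between -0.09 and 0.80.

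Lipoate is attached to Kgd2, and aconitase depends on late iron-sulfur cluster assembly. Of the 7 genes listed for these steps, all measured, 3 rose and 0 fell, beside 10.3% and 9.13% of all strains, with a median of 1.29. IBA57, which acts with Isa1 and Isa2 on clusters of the aconitase type, rose by 2.17 ± 0.52 (limma adjusted p = 0.0147), and the lipoate genes AIM22 and LIP2 rose by 2.01 ± 0.46 and 1.29 ± 0.33 (adjusted p = 0.0108 and 0.0201). IBA57 was already at 1.75 at 5 µg/ml, as ACO1 was at 1.74, whereas AIM22 and LIP2 were at 0.31 or lower up to 20 µg/ml and between 0.71 and 1.79 from 25 µg/ml. AIM22 was not called without the 40 µg/ml array, at 1.90, nor was LIP2 without that array (1.21) or the 1 µg/ml array (1.28). On the second section alone LIP2 was not called, at 0.67 ± 0.46, nor was IBA57 on the first, at 2.41 ± 0.78. ISA2 had 1.88 ± 0.92 and ISA1 -0.44 ± 0.50, both not called, but neither course was an even slope. ISA2 was at 1.16 to 2.73 from 5 to 25 µg/ml. ISA1 was at 1.00 to 1.73 from 5 to 20 µg/ml and at 0.07 to 0.47 above that, though its sections were at r = 0.04 with each other.

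Pyruvate entry and anaplerosis, the refilling of the cycle, gave changes from -4.22 to 4.64. Of 14 genes 3 rose and 1 fell, beside 10.3% and 9.13% of all strains, with a median of 0.71. PYC1, a pyruvate carboxylase that makes oxaloacetate in the cytosol, rose by 4.64 ± 0.82 (limma adjusted p = 0.00317), with values of 2.62 and 5.06 at 5 and 30 µg/ml. MAE1, mitochondrial malic enzyme, rose by 2.60 ± 0.83 (adjusted p = 0.0471), and PDX1, which anchors the E3 component of pyruvate dehydrogenase, by 2.00 ± 0.37 (adjusted p = 0.00385). MPC2, a subunit of the mitochondrial pyruvate carrier, fell with a change of -4.22 ± 0.71 (adjusted p = 0.00252), with values of -3.02 and -5.31 at 5 and 40 µg/ml. Its second section was at -5.83 and -5.81 at 35 and 40 µg/ml, near the low end of those arrays, whose lowest ratio was 0.01. With spots at a ratio of 0.02 or lower left out MPC2 was still called, at -3.80 ± 0.68. The MAE1 call was lost without any 1 of 7 arrays, at 0, 1, 15, 20, 30, 35 or 40 µg/ml, with 2.01 to 2.83, and on the first section alone, at 1.72 ± 1.02.

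Among 7 mitochondrial carriers of cycle intermediates, 1 rose and 1 fell, beside 10.3% and 9.13% of all strains, with a median of 0.90. DIC1, the dicarboxylate carrier, rose by 2.42 ± 0.60 (limma adjusted p = 0.0163), and OAC1, the oxaloacetate carrier, fell with a change of -1.94 ± 0.49 (adjusted p = 0.0176). DIC1 was not called without the 1 µg/ml array, at 2.05, nor was OAC1 without that array (-1.64) or the 40 µg/ml array (-1.68). Of 4 genes of glutamate metabolism 0 rose and 0 fell in limma, beside the same shares of all strains. An unadjusted p below 0.05 was reached by 0, beside 1000 rises and 775 falls among all 5325 strains. The median was 0.36, and the largest change was of the glutamate dehydrogenase GDH3, at 0.45 ± 0.32.

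Of 8 regulators of cycle genes 3 rose and 1 fell, beside 10.3% and 9.13% of all strains, with a median of 0.82. RTG1 and RTG2, of the retrograde pathway, rose by 4.10 ± 0.71 and 3.61 ± 0.74 (limma adjusted p = 0.00290 and 0.00631). HAP5, a subunit of the activator of respiratory genes, rose by 1.04 ± 0.24 (limma adjusted p = 0.0117). The other HAP strains were not called and differed in sign, with -0.53 ± 0.25 for HAP2, -1.17 ± 0.60 for HAP3 and 0.59 ± 0.57 for HAP4. MKS1, a negative regulator of the retrograde pathway, fell with a change of -5.68 ± 1.74 (adjusted p = 0.0413), though it was above the median, at 0.61 to 1.47, from 10 to 20 µg/ml. Its call was lost without any 1 of 7 arrays, at 0, 1, 10, 25, 30, 35 or 40 µg/ml, with -6.23 to -4.95, and on the first section alone, at -5.16 ± 1.80. Both MKS1 sections were at -5.83 at 35 µg/ml, near the low end of that array, whose lowest ratio was 0.01. With spots at a ratio of 0.02 or lower left out, 2 strains of the 7 other lists fell, against 3 with them.

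The ACO1 course was compared with all others after its values were seen. Among 1949 strains whose course spanned at least 2 on the log2 scale, the 5 most like it were RTG3 (r = 0.94 over 10 arrays), the prefoldin subunit PFD1 (r = 0.94), the ribosomal protein gene RPL17A (r = 0.93), the tubulin gene TUB3 (r = 0.92) and the prefoldin subunit GIM5 (r = 0.92). RTG3 was at 1.13, 3.38, 2.85 and 2.88 at 5 to 20 µg/ml and at 2.95 at 40 µg/ml, and its fitted change of 2.17 ± 0.90 was not called. The courses of RTG1, RTG2 and IDP1 were at r = 0.81, 0.86 and 0.86 with ACO1, those of IDH1 and IDH2 at -0.34 and -0.07. These values describe shape alone over arrays that share their spread, and PFD1, TUB3 and GIM5 reached 6.47, 6.31 and 5.56, higher than ACO1.

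**Figure D4:**
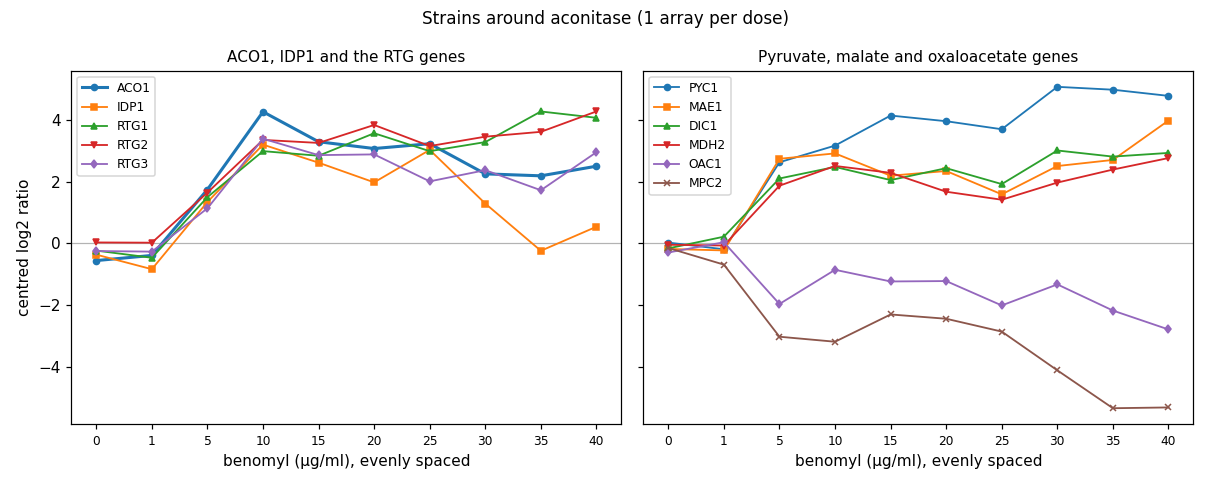
Centred log2 ratio (y axis) against benomyl dose in µg/ml (x axis, evenly spaced, 1 array per dose). On the left, ACO1, IDP1 and the RTG strains are higher at 10 than at 1 µg/ml and IDP1 is at -0.24 at 35 µg/ml; on the right, PYC1, MAE1, DIC1 and MDH2 lie above 1.40 and OAC1 and MPC2 below -0.85 at every dose from 5 µg/ml.

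The median course of the 10 members ran, by rising dose, through -0.32, -0.22, 0.56, 0.14, -0.16, -0.29, 0.08, -0.12, 0.45 and -0.01. The 5 strains most like this course were ATP4 (r = 0.81), ARP4 (r = 0.80), STT3 (r = 0.80), PUT7 (r = 0.78) and FMP48 (r = 0.77). ATP4 encodes a subunit of ATP synthase. ARP4 and STT3 are essential genes, so their signal need not come from haploid cells, and a median course that moves by less than 1 is easily matched. None of these 5 strains was called, with fitted changes of -0.21 to 1.50.

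**Figure D5:**
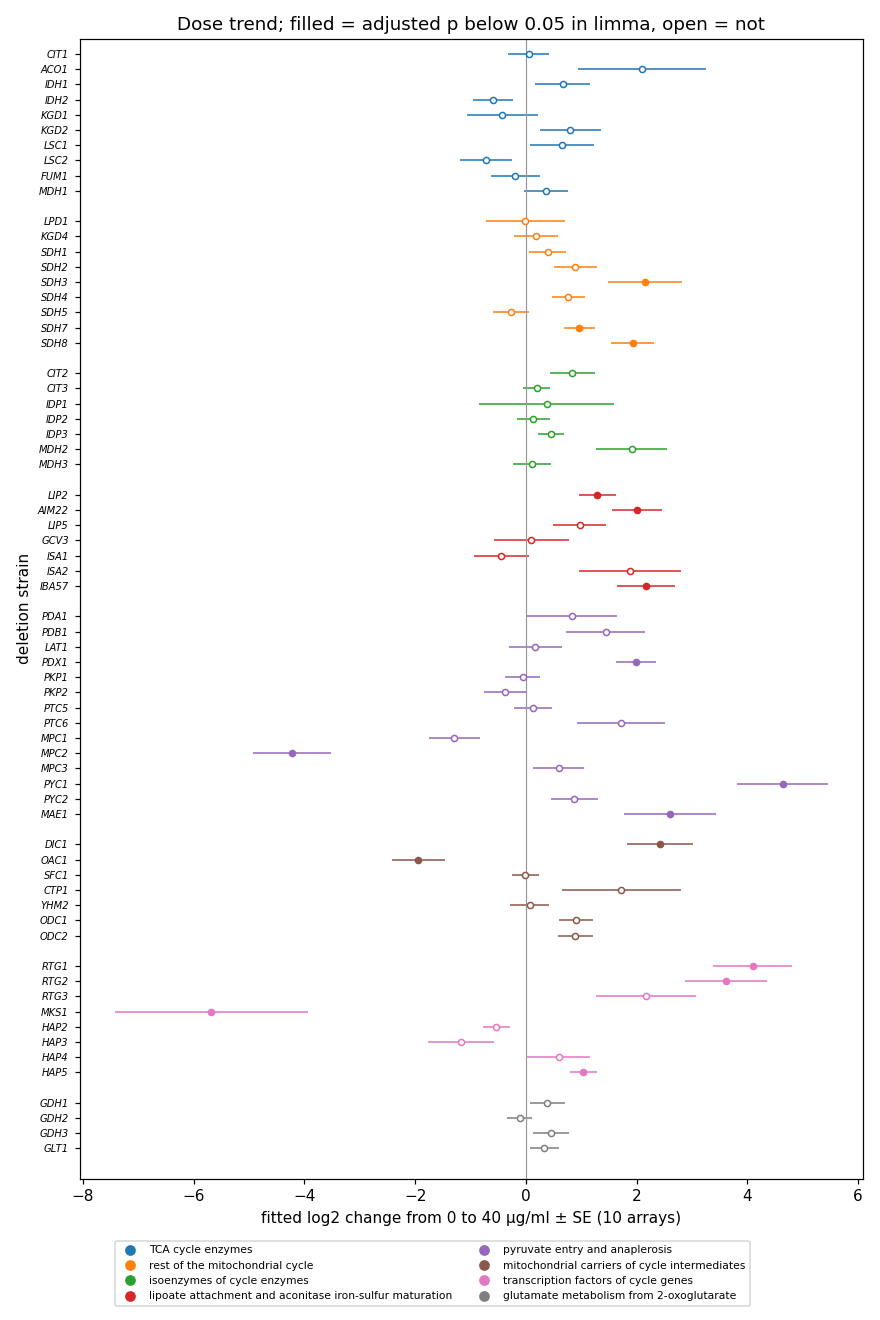
Fitted log2 change from 0 to 40 µg/ml benomyl with its standard error over 10 arrays (x axis) for the members and the 7 other lists (y axis, 1 deletion strain per line, coloured by list). Filled points passed an adjusted p of 0.05 in limma; none of the 10 members is filled, and PYC1, at 4.64, and MKS1, at -5.68, mark the extremes.

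In the 7 other lists together 13 of 56 strains rose and 3 fell, beside 10.3% and 9.13% of all strains, with a median change of 0.59. Over all strains 547 rose and 486 fell, so 53.0% of calls were rises (69.2% on ratios as deposited). With days of selection as a covariate MPC2 alone of the 16 strains called in these lists was still called, at -7.80 ± 1.29 (limma adjusted p = 0.0113). All 16 kept their sign and 10 had a change at least as large, with standard errors 1.83 to 2.53 times as wide. PYC1 was then at 4.38 ± 2.06, RTG1 at 4.07 ± 1.79 and SDH8 at 2.89 ± 0.91, while PDX1 was at 0.20 ± 0.67. With arrays brought to equal spread none of the 16 was called. Among all 56 strains of these lists 5 rises and 1 fall then had an unadjusted p below 0.05, beside 572 and 438 over all strains.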

How the data were processed

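The deposited table holds log2 ratios of 2 dyes per spot on 10 tag arrays; per the labels' protocols, a GenePix 4000B scanner and the program GenePix 5.1 gave the signals. The sources used here do not give the numerator or say whether the authors normalised the deposited log2 values. Genes came from GEO's platform annotation (18794 named spots, 5325 genes), with symbols updated for 5321 through RefSeq assembly R64. LIP3 is a synonym of AIM22 and was counted once, and SDH6 was not analysed here. Another listed gene is not reported here.

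Values coded as a ratio of about 1000000 (18 in the table) were set to missing. Each array was centred on the median of its named spots, all spots of a gene were averaged, and a gene needed values on 8 or more arrays. Lines against dose were fitted with limma 3.58.1 in R 4.3.3 (lmFit, eBayes, 8 residual and 3.34 prior degrees of freedom), with Benjamini-Hochberg adjustment over all strains, and tested on simulated data. Changes are log2 from 0 to 40 µg/ml. Every member and the rest of the cycle are named, of each other list up to 4 called strains (or the largest change), and the 5 strains most like the members' median course. P-values measure scatter of single arrays about a line, which may be technical. The members and lists were chosen with earlier results of these data known. Alternatives changed scaling, dose scale, days, spots, sections, filters and single arrays.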

Additional observations from a re-analysis of the deposited data

How the results depend on the processing

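No paired analysis was possible because each dose has 1 array. The counts of members called stayed at 0 under 24 of 25 alternatives. Against log2(dose + 1) 1 passed, ACO1 at 3.49. The fits of single members were less stable. An unadjusted limma p below 0.05 was reached by 2 members with days as a covariate and by 3, the most, on the 2-day arrays. With days as a covariate KGD1 changed sign, at 3.37, and KGD2 was at 2.88, both not called. Nothing is read from these member counts, since the courses were known when the members were chosen. In the other lists (13 rose, 3 fell) and over all strains (547 and 486), the counts were 0 and 0, then 55 and 38, once arrays had equal spread; 0 and 0, and 111 and 144, after quantile normalization; 0 and 1, and 157 and 182, with days as a covariate; 0 and 1, and 93 and 157, on the 4-day arrays; and 0 and 0, and 0 and 0, on the 2-day arrays, where 13 and 2, and 199 and 320, had an unadjusted p below 0.05. Unadjusted counts in the other lists were 5 and 1 with equal spread and 8 and 2 after quantile normalization. Over all strains these were 572 and 438, and 509 and 557. All strains gave 232 and 260 with log2(dose + 1), and 851 rose with no centring, which moved the overall median change from 0.09 to 0.33 and that of the members from 0.21 to 0.45. Leaving out 1 array gave 8 to 15 rises and 1 to 3 falls in the other lists, and 314 to 614 and 308 to 545 over all strains, lowest without the 1 µg/ml array in the lists and without the 40 µg/ml array overall. Of 16 named strains called, 11 were still called with log2(dose + 1), and 12 and 14 on the first and the second section alone. With spots at a ratio of 0.02 or lower left out 15 were. On the 2-day arrays MKS1 and HAP5 changed sign, at 0.35 and -0.0695 from 0 to 10 µg/ml. The ACO1 change was 0.77 and 3.42 on the sections, 4.95 over the 2-day arrays from 0 to 10 µg/ml and -0.87 over the 4-day arrays from 20 to 40 µg/ml. Beyond the construction of each alternative, the cause was not tested. Limits are the lack of replicate arrays, the shared rise of days and dose, and the unstated direction of the ratio.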
